A study of Mus musculus with 12 samples.

Results

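Csf1, Hbegf and Lif encode secreted growth factors: macrophage colony-stimulating factor, heparin-binding EGF-like growth factor and leukemia inhibitory factor. Their 3 probes were picked by name from the 734 endogenous probes of a myeloid gene panel, with their counts in all 12 libraries already known. Every comparison of these libraries may thus have served the choice, so the values of the 3 genes, and the counts of them that pass a test across the panel, are given as a description that supports nothing by itself. All 3 genes were among the 545 probes with enough counts to be tested.

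Csf1 binds the receptor kinase Csf1r, on which monocytes and macrophages depend for survival and growth. Hbegf is made as a membrane-anchored precursor, is released by proteases at the cell surface and activates the EGF receptor. Lif belongs to the interleukin-6 family and signals through its own receptor and a chain that the family shares. In mast cells, antigen that crosslinks receptor-bound IgE sets off kinase and calcium signals, degranulation and the transcription of cytokine and growth factor genes.

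The study asked how the loss of Mettl3, the enzyme that methylates adenosines in mRNA, changes mast cells at rest and after activation. Marrow of C57BL/6 mice, 6 to 8 weeks old, was kept in IL-3 for 4 weeks or more until it had turned into mast cells. In these bone marrow-derived mast cells (BMMCs), Cas9 was used to put a ZsGreen reporter into Mettl3 (Mettl3 KO) or into Kit (c-Kit KO, the edited control). All cells were sorted for ZsGreen, so every group carried a Cas9 cut and the reporter, and there was no unedited group. Each genotype was left unstimulated (US) or stimulated with IgE and antigen (IgE, 1 µg/ml IgE against DNP and 0.2 µg/ml HSA-DNP) for 4 h, which gave 4 groups of 3 biological replicates. The libraries are bulk RNA of sorted cells rather than clones, and the panel has no Mettl3 probe, so the extent of Mettl3 loss in them was not measured here.

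The guides are shown because the genotypes differ by which gene was edited. With no unedited group, an effect of Mettl3 loss and an effect of Kit loss cannot be told apart in any difference between them. The study's oligonucleotide table lists 2 guides against Mettl3 marked for reporter insertion and 2 against Kit without that mark, so it is assumed here that both Kit guides were used in these cells. All 4 matched GRCm39 at a single position within their gene. They are written 5′ to 3′ in lower case, followed by the genomic PAM in capitals.
Mettl3 guide 2: ggacacgtggagctctatccAGG
Mettl3 guide 3: gatggggtaaccaacaatcgAGG
Kit guide 1: agtcgggatcaatgcacgtcAGG
Kit guide 2: aaagccgaggccactcgcacGGG
Mettl3 guide 2 lies at chr14:52542420-52542439 on the minus strand, in the coding part of exon 1 of the canonical GENCODE transcript. Mettl3 guide 3 lies at chr14:52542216-52542235 on the plus strand, in the intron after exon 1. Both Kit guides lie in coding sequence of exon 2, at chr5:75767786-75767805 on the minus strand and chr5:75767877-75767896 on the plus strand.

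Kit itself is on the panel. Normalized counts are barcode counts divided by the library's housekeeping factor, and for Kit they were 1856, 2856 and 2826 in unstimulated c-Kit KO replicates 1, 2 and 3. The unstimulated Mettl3 KO libraries had 4057, 2533 and 2456. After stimulation the c-Kit KO libraries had 1159.5, 1613 and 739 and the Mettl3 KO libraries 1845, 1771 and 1549.6. The library labelled c-Kit KO thus had less Kit than the Mettl3 KO library of the same number in every stimulated pair and in unstimulated replicate 1, and more in unstimulated replicates 2 and 3. The Kit probe starts at base 4275 of its transcript, whereas exon 2 ends at base 476 of the canonical transcript, so these counts do not read the edited exon. The probe lies downstream of the inserted reporter, which the study followed with a polyA-STOP cassette meant to disrupt expression. The Kit counts of unstimulated replicates 2 and 3 thus go against their labels, and the cause was not tested. By staining of sorted cells, the paper reports loss of Mettl3 in Mettl3 KO cells and of c-Kit in c-Kit KO cells. The genotypes are taken from the labels throughout.

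The label mast cell was checked against 10 marker genes, all of which were above every negative control probe in 12 of 12 libraries, with Cpa3, a mast cell protease, the most abundant. The summed normalized count of these markers was 415517 ± 55622 (SD, n = 3) in unstimulated and 243204 ± 60163 in stimulated c-Kit KO cells. In Mettl3 KO cells it was 421044 ± 71570.0 without and 198480.0 ± 50452 with stimulation. The marker sum, to which Cpa3 with a mean of 144875 contributed most, was thus lower in each stimulated library than in any unstimulated one, and in bulk RNA fewer cells of a type and less RNA per cell cannot be told apart. With stimulation the fitted level was lower for 9 of the 10 markers in c-Kit KO cells, Hdc being the exception, and for 8 of 10 in Mettl3 KO cells, Hdc and Il1rl1 being the exceptions. These counts were the same with TMM, with DESeq2 and with 16 housekeeping probes. EdgeR called 1 marker lower in c-Kit KO cells, Ms4a2, and 3 lower in Mettl3 KO cells, Ms4a2, Cpa3 and Fcer1a; with TMM the numbers were 2 and 5, and with DESeq2 4 and 6. Ms4a2, a chain of the IgE receptor, fell by 1.82 (SE 0.33) and 2.19 (SE 0.34) on the log2 scale. Hdc, the histamine-synthesizing enzyme gene, rose by 2.22 (SE 0.67) and 2.27 (SE 0.67), and in c-Kit KO cells it was not called with TMM, where the change was 2.28 (SE 0.75). The transcription factor genes Gata1 and Gata2 gave -0.18 (SE 0.23) and -0.50 (SE 0.22) in c-Kit KO cells and -0.21 (SE 0.23) and -0.59 (SE 0.22) in Mettl3 KO cells; neither was called by edgeR, and Gata2 was called lower with DESeq2 in both and with TMM in Mettl3 KO cells. The part of these markers in the growth factor values was not tested.

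Markers of other myeloid cells were low. Of 12 macrophage and monocyte markers, Cd68 was above every negative control in all libraries, whereas Mertk, Siglec1, C1qb and C1qc were above them in 0. The sum of these 12 was 296 ± 6.27 in unstimulated and 298 ± 71.2 in stimulated c-Kit KO cells, and 411 ± 127 and 427 ± 123 in Mettl3 KO cells. Csf1r, the receptor for Csf1, had raw counts of 7 to 25 and was above every negative control in 1 of 12 libraries. Of 7 neutrophil markers 5 were never above the negative controls, as were 3 of 4 dendritic cell, 2 of 4 lymphocyte and 3 of 6 fibroblast and endothelial markers. Among 4 eosinophil markers Epx was never above them, and Siglecf, the most abundant at a mean of 42.1, rose with stimulation in both genotypes.

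Endogenous probes received 504238 to 737910 counts per library, and the mean of the 8 negative controls was 7.13 to 22.8. Raw counts were 143 to 6118 for Csf1, 68 to 1658 for Hbegf and 181 to 1995 for Lif, each above the highest negative control of its library in 12 of 12 libraries. The smallest ratio of a raw count to that control was 7.38 for Csf1, 2.77 for Hbegf and 6.03 for Lif, so unstimulated Hbegf was the nearest to background. Positive control probes were lowest in c-Kit KO cells of replicate 1, where their geometric mean was 738 unstimulated and 768 stimulated, against 1195 to 1706 elsewhere.

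**Figure D1:**
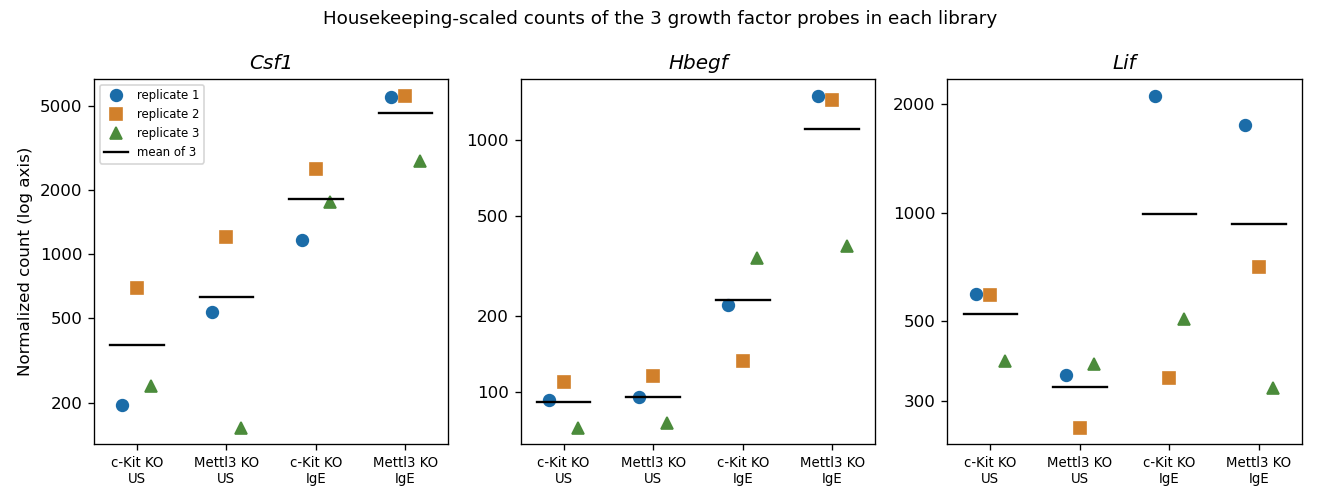
Normalized counts of Csf1, Hbegf and Lif (log axis, 1 panel per gene with its own scale) in each of 12 libraries, by group. Symbols mark the replicate number and lines the mean of 3; Csf1 and Hbegf are highest in stimulated Mettl3 KO cells, where Hbegf of replicate 3 stands at 379 against 1494 and 1433, and the Lif groups overlap except for the 2 unstimulated ones.

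Csf1, at chr3:107648364-107667806 on the minus strand of GRCm39, had normalized counts of 196, 693 and 241 in unstimulated c-Kit KO replicates 1, 2 and 3, and of 1166, 2522 and 1770.0 in the stimulated ones. In Mettl3 KO cells the counts were 535, 1202 and 154 without stimulation and 5511, 5569 and 2746 with it. In each genotype every stimulated library was above every unstimulated one. The stimulated Mettl3 KO libraries were all above the stimulated c-Kit KO libraries, and the unstimulated groups overlapped.

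The order of the Csf1 means, lowest first, was unstimulated c-Kit KO (377 ± 275, SD, n = 3), unstimulated Mettl3 KO (629.9 ± 530.5), stimulated c-Kit KO (1819 ± 679) and stimulated Mettl3 KO (4609 ± 1614). The first 2 groups differed by less than their spread. The step from unstimulated Mettl3 KO to stimulated c-Kit KO exceeded the larger SD, but the groups overlapped, since unstimulated Mettl3 KO replicate 2 (1202) was above stimulated c-Kit KO replicate 1 (1166). The last step, from stimulated c-Kit KO to stimulated Mettl3 KO, exceeded the SD with no overlap.

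The fitted log2 fold change of Csf1 with stimulation was 2.27 (SE 0.69) in c-Kit KO cells and 2.87 (SE 0.70) in Mettl3 KO cells. Within pairs of libraries of the same replicate number, the c-Kit KO differences were 2.57, 1.86 and 2.87 on the log2 scale. Those of Mettl3 KO cells were 3.37, 2.21 and 4.16, higher than the c-Kit KO difference of the same number in 3 of 3 pairs. The difference between the responses was 0.60 (SE 0.93), smaller than its error, and by pair 0.79, 0.35 and 1.29. The errors given with fitted values come from the model of 4 groups, which does not use the pairing.

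Between the genotypes, Csf1 was 1.34 (SE 0.67) higher on the log2 scale in stimulated Mettl3 KO than in stimulated c-Kit KO cells, with pair differences of 2.24, 1.14 and 0.63. Without stimulation the fitted difference was 0.74 (SE 0.66), and the pairs gave 1.45, 0.79 and -0.65. Mettl3 KO was thus the higher in 3 of 3 stimulated pairs and in 2 of 3 unstimulated ones, replicate 3 being the exception. The summed macrophage and monocyte markers had the same signs: on the log2 scale they differed by 0.56, 0.56 and 0.40 between genotypes in stimulated pairs 1, 2 and 3 and by 0.70, 0.70 and -0.14 in unstimulated ones. Without Cd68, their most abundant gene, the differences of the other 11 were 0.18, 0.12 and 0.41 with stimulation and 0.28, 0.29 and -0.36 without it, so in pairs 1 and 2 most of the difference was that of 1 gene. Cd68 was higher in Mettl3 KO cells by fitted differences of 0.83 (SE 0.53) with and 0.97 (SE 0.53) without stimulation. Adgre1 went the other way, at -0.47 (SE 0.28) and -0.18 (SE 0.27). Cd163 gave 0.25 (SE 0.38) and 0.85 (SE 0.40), C1qa -0.039 (SE 0.39) and 0.44 (SE 0.38), and Csf1r 0.30 (SE 0.37) and -0.0054 (SE 0.39). None of the 8 tested markers of this list was called between genotypes in either state. Mertk, Siglec1, C1qb and C1qc were at background. The part of these markers in the Csf1 difference was not tested.

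Hbegf lies at chr18:36637980-36649677 on the minus strand of GRCm39. Its normalized counts in unstimulated c-Kit KO replicates 1, 2 and 3 were 93.1, 110.2 and 72.7, and in the stimulated ones 222, 133 and 339.9. Unstimulated Mettl3 KO cells had 96.4, 116 and 75.5, and stimulated ones 1494, 1433 and 379. The unstimulated genotypes lay over each other, replicate by replicate. Each stimulated library exceeded all 6 unstimulated ones, and the stimulated genotypes did not overlap, although Mettl3 KO replicate 3 (379) was close to c-Kit KO replicate 3 (339.9).

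By mean, Hbegf was lowest in unstimulated c-Kit KO (92.0 ± 18.8, SD, n = 3) and unstimulated Mettl3 KO cells (96.0 ± 20.3), which did not differ beyond their spread. Stimulated c-Kit KO cells followed at 232 ± 104 and stimulated Mettl3 KO cells at 1102 ± 627, each step exceeding the larger SD.

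With stimulation, the fitted Hbegf log2 fold change was 1.33 (SE 0.48) in c-Kit KO and 3.52 (SE 0.52) in Mettl3 KO cells, where it was the largest fitted value of the 3 genes. By pair in Mettl3 KO cells, Hbegf was above Csf1 in replicates 1 and 2 and below it in replicate 3 (2.33 against 4.16). Pair differences were 1.25, 0.27 and 2.23 in c-Kit KO cells. Mettl3 KO cells gave 3.95, 3.63 and 2.33, so that the genotypes stood far apart in replicates 1 and 2 and near each other in replicate 3. The difference between the responses was 2.19 (SE 0.68), and by pair 2.70, 3.35 and 0.10.

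Stimulated Mettl3 KO cells had a fitted Hbegf level 2.25 (SE 0.49) higher on the log2 scale than stimulated c-Kit KO cells, with pair differences of 2.75, 3.43 and 0.16. In unstimulated cells the difference was 0.06 (SE 0.48), and the pairs gave 0.049, 0.076 and 0.055. The stimulated Mettl3 KO library of replicate 3, which holds the smallest of the stimulated differences, is also the library whose replicate number is not the same in the sample labels and in the study's supplementary count table. Over the 545 tested genes, the pair differences between genotypes in replicate 3 had an SD of 0.36 without and 0.43 with stimulation on the log2 scale, against 0.60 to 1.05 in replicates 1 and 2, so replicate 3 stood apart on the panel as a whole; the part of this in the Hbegf values was not tested.

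Lif, at chr11:4207557-4222514 on the plus strand, had normalized counts of 594, 591 and 387 in unstimulated c-Kit KO replicates 1, 2 and 3, and of 2114, 348 and 506 in the stimulated ones. Unstimulated Mettl3 KO cells had 354, 253 and 379, and stimulated ones 1758, 708 and 327. In both genotypes stimulated replicate 1 was far above the rest, and stimulated and unstimulated libraries overlapped. The unstimulated genotypes did not overlap, c-Kit KO being higher, by a narrow gap between 379 and 387.

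Lowest first, the Lif means were those of unstimulated Mettl3 KO (329 ± 66.7, SD, n = 3), unstimulated c-Kit KO (524.0 ± 119), stimulated Mettl3 KO (931 ± 741) and stimulated c-Kit KO (989.6 ± 977). The first step exceeded the larger SD. The upper 3 groups overlapped, with neighbours that did not differ beyond their spread.

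The fitted log2 fold change of Lif with stimulation was 0.92 (SE 0.67) in c-Kit KO and 1.50 (SE 0.68) in Mettl3 KO cells, and the difference between them was 0.58 (SE 0.94). Pair differences were 1.83, -0.76 and 0.39 in c-Kit KO cells and 2.31, 1.48 and -0.21 in Mettl3 KO cells. Lif was thus higher with stimulation in 2 of 3 pairs of each genotype, the exception being replicate 2 in c-Kit KO and replicate 3 in Mettl3 KO cells.

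Between genotypes, Lif was the 1 gene of the 3 with a lower fitted level in unstimulated Mettl3 KO than in unstimulated c-Kit KO cells, at a log2 difference of -0.67 (SE 0.67) and pair differences of -0.75, -1.22 and -0.028. In stimulated cells the fitted difference was -0.088 (SE 0.66), and the pairs gave -0.27, 1.02 and -0.63, with no common direction.

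**Figure D2:**
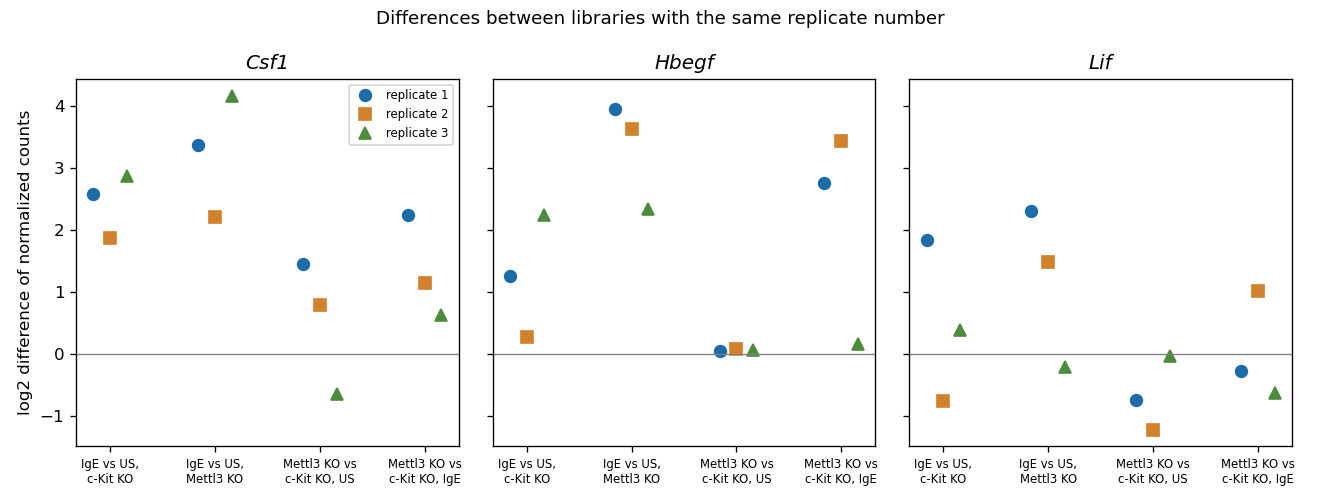
Log2 differences of normalized counts between libraries of the same replicate number for Csf1, Hbegf and Lif, in 4 comparisons: stimulated against unstimulated cells of each genotype, and Mettl3 KO against c-Kit KO cells in each state. Each symbol is 1 pair and the grey line is no difference; the Csf1 and Hbegf stimulation differences are above it in 3 of 3 pairs of each genotype, and those of Lif in 2 of 3.

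A gene is counted as called where its adjusted p was under 0.05 (edgeR's quasi-likelihood test, Benjamini-Hochberg adjustment over the 545 genes tested). For the 3 growth factors these counts only describe the pattern for which they may have been chosen. With stimulation in c-Kit KO cells 1 of 3 was called, Csf1, upward, beside 18.9% of all genes tested (66 up and 37 down; 156 genes in place of 103 with the replicate number as a block). At an unadjusted p under 0.05 there were 2 of the 3, beside 34.3% of the panel. The call rests on single libraries: 0 of 3 were called without stimulated c-Kit KO replicate 2 or 3, unstimulated c-Kit KO replicate 1 or 3, stimulated Mettl3 KO replicate 2 or unstimulated Mettl3 KO replicate 1, and 2 of 3, Csf1 and Hbegf, without stimulated Mettl3 KO replicate 3. It was also 0 of 3 without both c-Kit KO libraries of replicate 1, those with low positive controls.

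In Mettl3 KO cells, stimulation gave 2 of 3 called, Csf1 and Hbegf, both upward, beside 32.7% of the panel (120 up and 58 down), and 3 of 3 beside 42.8% at an unadjusted p under 0.05. Leaving out stimulated Mettl3 KO replicate 3 or stimulated c-Kit KO replicate 1 made it 3 of 3, with Lif, and leaving out all of replicate 1 made it 1 of 3, Hbegf. The 2 stimulation comparisons use different libraries, but the model estimates 1 spread for all 12.

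In stimulated cells, 0 of the 3 were called between Mettl3 KO and c-Kit KO by edgeR, beside 0.917% of the panel, which is 5 genes, all higher in Mettl3 KO cells. At an unadjusted p under 0.05 the count was 1 of 3 by edgeR, after adjustment it was 1 of 3 by DESeq2 and 0 by limma, and the panel counts were 79, 23 and 4. Without stimulated Mettl3 KO replicate 3 edgeR called 1 of 3, Hbegf. Scaling by housekeeping probes set the median gene 0.20 higher on the log2 scale in stimulated Mettl3 KO cells, and TMM scaling 0.022, a shift of 0.18; with TMM the differences were 1.16 for Csf1, 1.99 for Hbegf and -0.29 for Lif. These comparisons share their groups with those of stimulation.

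In unstimulated cells edgeR called 0 of the 3 between genotypes, beside 0% of the panel, and 0 of 3 at an unadjusted p under 0.05, where the panel count was 7. DESeq2 and limma also called 0 genes of the panel. Here the Hbegf difference kept its sign in 24 of 28 alternatives, turning to -0.045 with TMM, and the Csf1 difference in 27 of 28, the lowest being -0.13. For the interaction of genotype and stimulation edgeR called 0 of 3, beside 0% of the panel, with 1 of 3 and 23 panel genes at an unadjusted p under 0.05. DESeq2 called 0 of 3 and 2 panel genes, and limma 0 and 0. Leaving out stimulated Mettl3 KO replicate 3 made the edgeR count 1 of 3, Hbegf.

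Over the 12 libraries, Pearson's r of log2(normalized count + 1) was 0.86 for Csf1 and Hbegf, 0.54 for Hbegf and Lif and 0.31 for Csf1 and Lif (n = 12). Within the 6 stimulated libraries these were 0.81, 0.35 and -0.039 (n = 6). With the mean of each of the 4 groups removed, r over 12 libraries was 0.42 for Csf1 and Hbegf, 0.54 for Hbegf and Lif and -0.12 for Csf1 and Lif. Csf1 and Hbegf were thus the most alike of the 3 pairs across the groups, but not within them. Among 544 other tested genes, Hbegf ranked only 55 in likeness to Csf1 over 12 libraries and 88 over the stimulated ones. Over 12 libraries Lif ranked 242 in likeness to Csf1 and 167 in likeness to Hbegf.

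The genes whose counts were most like Csf1 over 12 libraries were Arf6, a small GTPase of membrane traffic (r = 0.96), the chemokine genes Ccl7 (0.96) and Ccl3 (0.95), Olr1, a scavenger receptor for oxidized lipoprotein (0.95), and Peli1, a ubiquitin ligase of innate signalling (0.95). In the 6 stimulated libraries they were Ctsl, a lysosomal protease (0.99), Ski (0.97) and the kallikrein gene Klk1 (0.97), of which Ctsl was above every negative control in 2 and Klk1 in 0 of these 6 libraries, so that their r is computed mostly, and for Klk1 wholly, on counts at background. Arf6, for example, had means of 1517 ± 127 and 2496 ± 339.9 (SD, n = 3) in unstimulated and stimulated c-Kit KO cells, and 1756 ± 381 and 3714 ± 1009 in Mettl3 KO cells. With a pseudocount of 20, 4 of the first 5 genes were still among the 5 most alike, and 3 with TMM. Of the 3 in stimulated libraries, 3 were still there with the pseudocount and 1 with TMM.

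Most like Hbegf were the cytokine genes Il3 (r = 0.97) and Tnf (0.95), the small GTPase gene Gem (0.96) and the transcription factor genes Batf (0.96) and Atf3 (0.95). In stimulated libraries they were Nfkbie, an inhibitor of NF-κB (0.99), the chemokine gene Ccl9 (0.98) and Olr1 (0.98). Il3 and Gem were among the 5 genes called higher in stimulated Mettl3 KO than in stimulated c-Kit KO cells. Gem and Atf3 were above every negative control in 0 of 6 unstimulated and 6 of 6 stimulated libraries, Olr1 in 1 of 6 and 6 of 6, and Il3 in 3 of 6 and 6 of 6, so their r over 12 libraries sets unstimulated counts at background against stimulated ones above it. Of the first 5, 2 were still among the most alike with a pseudocount of 20, and 4 with TMM. In stimulated libraries 3 of 3 were still there with the pseudocount and 2 with TMM.

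For Lif the values were lower: the immediate early genes Fosb (r = 0.86) and Jun (0.82), the antiproliferative gene Btg2 (0.85), Osm, which encodes another cytokine of the interleukin-6 family (0.84), and the adenosine receptor gene Adora3 (0.82). In stimulated libraries Jun (0.97), Txn1, which encodes thioredoxin (0.95), and Btg2 (0.93) came first. The 5 over 12 libraries were the same 5 with a pseudocount of 20 and with TMM, but of the 3 in stimulated libraries, 3 were still there with the pseudocount and 1 with TMM. Osm had stimulation pair differences of 0.72, -0.85 and 0.39 in c-Kit KO cells, where those of Lif were 1.83, -0.76 and 0.39. For Mettl3 KO cells the differences were 0.72, 0.85 and 0.20 for Osm and 2.31, 1.48 and -0.21 for Lif, of opposite sign in replicate 3.

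Related genes on the panel were taken from 5 lists of growth factors, cytokines, their receptors and 2 genes downstream of them and from 1 list of RAS-ERK pathway genes, without the 3 growth factors themselves. All lists were chosen with earlier results of these data known, so their counts are a description too. Of 58 such genes, 48 were tested, and with stimulation edgeR called 8 higher and 1 lower in c-Kit KO cells (18.8%, beside 18.9% of the panel) and 16 higher and 4 lower in Mettl3 KO cells (41.7%, beside 32.7%). Their median log2 fold changes were 0.36 and 0.62, against -0.055 and 0.019 over all genes tested. Without the pathway list, 7 of 35 were called in c-Kit KO cells (20%) and 12 of 35 in Mettl3 KO cells (34.3%, near the 32.7% of the panel), with medians of 0.29 and 0.55, so the higher share in Mettl3 KO cells came from the pathway list. The count of 9 in c-Kit KO cells was 15 with the replicate block, and 5, 3 and 4 without stimulated replicate 3, unstimulated replicate 1 or unstimulated replicate 3 of c-Kit KO. It was 2 without both c-Kit KO libraries of replicate 1, and 2 to 6 with each whole replicate left out in turn. The count of 20 in Mettl3 KO cells was 13 without unstimulated Mettl3 KO replicate 2 and 13 without replicate 3. With each whole replicate left out in turn it ranged from 8 to 15.

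Besides Hbegf, the panel holds 3 EGF family ligands. Areg, the amphiregulin gene, rose with stimulation in Mettl3 KO cells by a log2 fold change of 2.44 (SE 0.62), from 17.6 ± 7.39 to 94.0 ± 65.5 (SD, n = 3), and was above every negative control in 0 of 6 unstimulated and 3 of 6 stimulated libraries, so the size of its rise depends on counts at background. It was the 1 of 3 ligands called in Mettl3 KO cells (33.3%, beside 32.7% of the panel). In c-Kit KO cells its change was 0.57 (SE 0.65), and edgeR called none of the 3 (beside 18.9% of the panel). Tgfa gave 1.09 (SE 0.47) and 1.11 (SE 0.48) in the c-Kit KO and Mettl3 KO cells and Egf -0.28 (SE 0.29) and -0.32 (SE 0.29), none of them called. Tgfa was above every negative control in 0 of 6 unstimulated and 4 of 6 stimulated libraries, so the size of its change also depends on counts at background. The median of the 3 was 0.57 in c-Kit KO and 1.11 in Mettl3 KO cells, the values of Areg and Tgfa.

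Of the other colony-stimulating factors and their receptors, 7 of 10 were tested, and with stimulation 3 were called in c-Kit KO cells (42.9%, beside 18.9% of the panel) and 4 in Mettl3 KO cells (57.1%, beside 32.7%). Csf2, which encodes granulocyte-macrophage colony-stimulating factor, and Il3, a mast cell growth factor gene, rose with stimulation in both genotypes. Csf2 rose by 5.38 (SE 1.21) on the log2 scale in c-Kit KO and 7.33 (SE 1.29) in Mettl3 KO cells, and Il3 by 2.62 (SE 0.74) and 5.90 (SE 0.84). Without stimulation Csf2 was above every negative control in 1 of 6 libraries and Il3 in 3 of 6, so the size of these rises depends on counts at background. Il3 was also 3.99 (SE 0.76) higher in stimulated Mettl3 KO than in stimulated c-Kit KO cells. That was the 1 call among the 48 related genes between genotypes, 2.08% of them beside 0.917% of the panel, and 0 were called without any 1 of 7 libraries: stimulated replicates 1 and 2 of either genotype, and the 3 unstimulated c-Kit KO libraries. The count was 5 without stimulated Mettl3 KO replicate 3 and 2 without stimulated c-Kit KO replicate 3. Kit changed by -1.10 (SE 0.32) in c-Kit KO cells, where it was called, and by -0.81 (SE 0.32) in Mettl3 KO cells. Kitl, the gene of the Kit ligand, gave -0.60 (SE 0.32) and -1.06 (SE 0.33), and Il3ra, a chain of the interleukin-3 receptor, -0.56 (SE 0.32) and -0.97 (SE 0.33), both called in Mettl3 KO cells. Each of the 3 genes was lower in 3 of 3 pairs of both genotypes. The list's median was 0.13 in c-Kit KO and 0.44 in Mettl3 KO cells.

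In the list of the Lif family, which includes receptors and the downstream genes Stat3 and Socs3, 6 of 7 other genes were tested and Il6 was the 1 called in each genotype (16.7%, beside 18.9% of the panel in c-Kit KO and 32.7% in Mettl3 KO cells), with a rise of 1.92 (SE 0.47) in c-Kit KO and 3.15 (SE 0.50) in Mettl3 KO cells. Its mean counts were 778 ± 141 and 2939 ± 618 (SD, n = 3) in unstimulated and stimulated c-Kit KO cells, and 849.7 ± 344 and 7555 ± 4842 in Mettl3 KO cells. Osm, the nearest relative of Lif on the panel, changed by 0.40 (SE 0.60) and 0.61 (SE 0.60) and was not called. The median of the 6 was 0.21 in c-Kit KO and 0.62 in Mettl3 KO cells.

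Of 13 tested growth factors of other families, edgeR called 3 higher and 0 lower with stimulation in c-Kit KO cells (23.1%, beside 18.9% of the panel), and 4 higher and 1 lower in Mettl3 KO cells (38.5%, beside 32.7%). Pdgfa, a platelet-derived growth factor gene, rose by 2.33 (SE 0.56) and 2.72 (SE 0.57), Fgf2, a fibroblast growth factor gene, by 0.97 (SE 0.30) and 1.57 (SE 0.31), and Tgfb1 by 0.87 (SE 0.25) and 0.82 (SE 0.25). Vegfa, of vascular growth, gave 0.01 (SE 0.36) in c-Kit KO and 1.21 (SE 0.36) in Mettl3 KO cells, and Angpt1, the angiopoietin gene, -0.67 (SE 0.50) and -1.97 (SE 0.52), both called in Mettl3 KO cells. The medians of the 13 were 0.81 and 0.75. Of 6 tested receptors for growth factors, Tek, the angiopoietin receptor gene, was called in Mettl3 KO cells at -1.71 (SE 0.40) (16.7% called, beside 32.7% of the panel). None passed in c-Kit KO cells (beside 18.9%), where Tek gave -0.93 (SE 0.39) and was lower in 3 of 3 pairs. The medians of the 6 were 0.34 in Mettl3 KO and 0.22 in c-Kit KO cells.

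Growth factor receptors and the IgE receptor both feed the RAS-ERK kinase cascade, and 13 of its kinases and induced feedback genes were tested. With stimulation 2 of 13 were called in c-Kit KO cells (15.4%, beside 18.9% of the panel) and 8 of 13 in Mettl3 KO cells (61.5%, beside 32.7%), all higher, with medians of 0.45 and 0.92. Since the list holds genes picked for being induced by the cascade, and was chosen with earlier results known, a share above that of the panel and a common direction are no test of the pathway. Egr2, an early response transcription factor gene, rose by 3.66 (SE 0.51) and 4.10 (SE 0.51), and Spry2, a feedback inhibitor of the cascade, by 2.12 (SE 0.26) and 2.18 (SE 0.26). The other 6 in Mettl3 KO cells were the phosphatase genes Dusp1, Dusp2 and Dusp6, the transcription factor genes Egr3 and Fosl1, and Map2k1, a kinase that activates ERK, with log2 fold changes of 2.50, 2.98, 0.83, 4.68, 1.51 and 0.92, beside 0.16, 0.94, 0.82, 2.90, 1.14 and 0.44 in c-Kit KO cells. Their SEs were 0.89, 0.52, 0.28, 1.28, 0.48 and 0.26 in Mettl3 KO and 0.85, 0.53, 0.28, 1.19, 0.47 and 0.26 in c-Kit KO cells. Dusp6 thus changed alike in both genotypes and was called in 1 of them (edgeR adjusted p 0.0389 in Mettl3 KO and 0.0616 in c-Kit KO cells). The Mettl3 KO pairs of Dusp1 ranged widely, at 3.32, 1.71 and 0.45. Without stimulation Egr2 was above every negative control in 1 of 6 libraries, Egr3 in 4, and Dusp2 and Fosl1 in 0, so the size of their fold changes depends on counts at background. The difference between the genotypes' responses was tested as the interaction, for which edgeR called 0 of the 48 related genes, with 3 at an unadjusted p under 0.05 and 0 by DESeq2 and limma. Between unstimulated genotypes edgeR, DESeq2 and limma each called 0 of the 48, with 1 at an unadjusted p under 0.05 in edgeR.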

How the data were processed

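The authors hybridized 40 ng of RNA from each of 12 samples to the 768 probes of the panel and deposited raw counts per probe, with no scaling (each column was matched to a sample, with 0 left over). Counts were divided by the geometric mean of 20 housekeeping probes, relative to its mean over libraries, and a probe was tested with at least 20 counts in at least 3 libraries. Tests used edgeR 4.0.16 in R 4.3.3 (quasi-likelihood, 1 model of 4 groups, library sizes from the housekeeping factors, Benjamini-Hochberg adjustment over 545 probes).

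The growth factors and gene lists were chosen with earlier results of these data known. Named genes are the 3 growth factors, the 5 probes with the highest Pearson r to each over 12 libraries and the 3 over 6 stimulated ones, list genes called in any comparison, named ligands and receptors, Kit and the cell type markers.

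The series describes 3 sets of cultures that were edited, and the labels number them. With group means removed, all 18 pairs of libraries of the same number correlated above 0.1 over 545 genes (mean r 0.33). Of the 216 ways to match the numbers between the 4 groups, the labelled one had the highest mean r (the next had 0.22), so the numbers pair the samples. With the number as a block, the growth factors called were 1, 2, 0, 0 and 0 in the 5 comparisons (stimulation in c-Kit KO and in Mettl3 KO, genotype without and with stimulation, interaction), as without it.

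Alternatives were TMM, only the 16 housekeeping probes whose mean reached 100, positive control scaling, DESeq2 1.42.0, limma 3.58.1, no filter, a mean of at least 50 counts, background subtraction, only the groups compared, the block with and without 1 library, each replicate left out, and, for likeness, a pseudocount of 20. Leaving out each library, leaving out both c-Kit KO libraries of replicate 1 and robust estimation were chosen after seeing the data. The means, lowest and highest counts and coefficients of variation in the deposited table were not used.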

Additional observations from a re-analysis of the deposited data

How the results depend on the processing

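Over 28 alternatives (27 for the interaction), the fold changes of Csf1 and Hbegf with stimulation and between stimulated genotypes kept their sign in 28 of 28. Those of Lif kept it in 25 with stimulation in c-Kit KO cells (-0.29 to 1.42) and in 19 between stimulated genotypes (-0.94 to 1.12). For Csf1 and Hbegf the groups did not overlap in the comparisons named here. Leaving out libraries could thus not turn their sign, and the 28 of 28 is no test. Of 837 values of named list genes under alternatives, 672 kept their direction and side of the threshold.

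Growth factors called with stimulation in c-Kit KO cells, 1 as reported, were 2 with DESeq2 and with the replicate block without stimulated Mettl3 KO replicate 3, and 0 with background subtracted and without both c-Kit KO libraries of replicate 1. Leaving out a replicate gave 0 to 1 and a single library 0 to 2. In Mettl3 KO cells, 2 as reported, there were 3 with the block without that library, and the ranges were 1 to 2 and 2 to 3. Between stimulated genotypes, 0 as reported, 1 was called with DESeq2, with 16 housekeeping probes, with no filter and with the block without stimulated Mettl3 KO replicate 3; the ranges were 0 to 1 and 0 to 1. For the interaction they were 0 to 0 and 0 to 1, and without stimulation 0 was called throughout.

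Related genes called, of 48, with stimulation in c-Kit KO cells (9 as reported) were 5 with background subtracted, 15 with the block, 16 with the block without that library and 2 without the c-Kit KO libraries of replicate 1, with ranges of 2 to 6 and 3 to 10. In Mettl3 KO cells (20) they were 13 with background subtracted, with ranges of 8 to 15 and 13 to 21. Between stimulated genotypes (1) they were 3 with DESeq2, 6 with the block without that library, and 0 with background subtracted, with only the groups compared and without the c-Kit KO libraries of replicate 1, with ranges of 0 to 4 and 0 to 5.

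Leaving out libraries leaves fewer to estimate the spread; beyond that the cause of these changes was not tested. Leaving out single libraries, or both of replicate 1, was chosen after seeing the data. Positive control scaling cancels in housekeeping scaling. Raw Hbegf counts started at 68, where the highest negative control of the library was 10. The ratio was smallest, at 2.77, in unstimulated Mettl3 KO replicate 2, with 83 against 30.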
